A study of Mus musculus with 16 samples.

Results

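H3K27me3 was compared between neural precursor cells (NPC) with and without PCGF5, using every peak of the wild type NPC list (11371 peaks) and of the PCGF5-depleted NPC list (14759 peaks). Together these are 26130 of the 86279 peaks in the 10 peak lists of the series, and no peak was left out. A wild type peak that shared 1 bp or more with any peak of the other list was called kept, and otherwise lost. A PCGF5-depleted peak was called shared or gained in the same way. A gene was called marked in a list when a peak was centred no more than 2500 bp from where any of its protein-coding transcripts starts (mm9, GENCODE M1), and genes were then kept, lost or gained by whether they were marked in both lists, in wild type alone or in PCGF5-depleted NPC alone.

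Both groups were mouse cells derived from Sox1-GFP embryonic stem cells (ES), a line that carries a green fluorescent reporter of the early neural gene Sox1, and both were collected after 6 days of neural differentiation in suspension with knockout serum replacement. The wild type group is labelled with no further change. By its labels the other group was shPCGF5, a short hairpin RNA against Pcgf5 that the study delivered by lentivirus into picked, puromycin-selected cell clusters, so a residue of PCGF5 and the history of the picked cells come with this group, and which hairpin was used is not given in the sources used here. Chromatin of both was cut with MNase and precipitated with an antibody against H3K27me3, with 1 library a group. There was thus no replicate error and no test of the conditions, shares are given with 95% Wilson intervals that cover counting error only, and the depth of the libraries is unknown because the files hold peaks and not reads.

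H3K27me3 is placed by Polycomb repressive complex 2 and marks developmental genes that are silent or held poised, often over CpG-rich promoters and in broad domains. Polycomb repressive complex 1, of which PCGF5 is an optional subunit, attaches ubiquitin to a lysine of histone H2A, and this mark, H2AK119ub1, and H3K27me3 can each help to recruit the enzyme of the other. When ES become neural, genes of pluripotency and of other germ layers commonly take up the mark, and neural genes commonly shed it.

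To show the DNA under the peaks that the comparison turns on, windows of 200 bases were read from mm9 inside the widest promoter peak of genes whose mark was lost (Nodal, Lefty1, Otx2, Ltbp4), longer (Nes, Pou3f2) or gained (Zeb2, Rgma) in PCGF5-depleted NPC. They are written 5′ to 3′ on the strand of the gene, and capitals mark CpG dinucleotides.
Nodal: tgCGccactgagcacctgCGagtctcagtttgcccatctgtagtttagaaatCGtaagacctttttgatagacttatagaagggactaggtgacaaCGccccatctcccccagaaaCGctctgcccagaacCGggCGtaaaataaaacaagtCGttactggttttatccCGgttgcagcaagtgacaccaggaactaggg
Lefty1: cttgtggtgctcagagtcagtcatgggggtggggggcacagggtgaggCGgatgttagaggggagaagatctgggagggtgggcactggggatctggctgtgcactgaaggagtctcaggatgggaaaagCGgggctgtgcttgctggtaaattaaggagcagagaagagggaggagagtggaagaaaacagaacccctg
Otx2: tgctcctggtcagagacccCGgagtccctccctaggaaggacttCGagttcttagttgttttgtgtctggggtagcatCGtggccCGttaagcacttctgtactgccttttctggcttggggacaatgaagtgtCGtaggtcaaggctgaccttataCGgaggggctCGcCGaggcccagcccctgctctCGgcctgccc
Ltbp4: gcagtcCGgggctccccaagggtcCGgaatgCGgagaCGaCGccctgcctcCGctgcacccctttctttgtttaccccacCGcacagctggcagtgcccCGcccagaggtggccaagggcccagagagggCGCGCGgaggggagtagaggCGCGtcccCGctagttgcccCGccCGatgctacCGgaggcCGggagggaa
Nes: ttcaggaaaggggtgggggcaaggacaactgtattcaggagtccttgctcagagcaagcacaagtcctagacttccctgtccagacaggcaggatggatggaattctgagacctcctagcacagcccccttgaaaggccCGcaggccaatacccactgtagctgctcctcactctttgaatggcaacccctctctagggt
Pou3f2: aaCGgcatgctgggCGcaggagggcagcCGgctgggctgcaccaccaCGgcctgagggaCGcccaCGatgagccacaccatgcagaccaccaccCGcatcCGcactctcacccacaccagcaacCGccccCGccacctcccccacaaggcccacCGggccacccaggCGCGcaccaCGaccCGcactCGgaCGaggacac
Zeb2: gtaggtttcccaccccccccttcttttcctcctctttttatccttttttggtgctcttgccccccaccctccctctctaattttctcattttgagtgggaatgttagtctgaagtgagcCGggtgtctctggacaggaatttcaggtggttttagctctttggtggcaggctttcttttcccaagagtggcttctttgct
Rgma: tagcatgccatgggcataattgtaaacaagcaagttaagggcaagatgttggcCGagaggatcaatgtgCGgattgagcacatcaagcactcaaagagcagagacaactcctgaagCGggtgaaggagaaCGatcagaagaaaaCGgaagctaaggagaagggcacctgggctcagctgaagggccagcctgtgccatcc

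The Nodal window lies at chr10:60881480-60881679 on the plus strand, in an intron, and holds 9 CpG. That of Lefty1 is at chr1:182865577-182865776 on the plus strand, also intronic, with 2 CpG. The Otx2 window at chr14:49285746-49285945 on the minus strand, in an intron, holds 9 CpG, and the intronic Ltbp4 window at chr7:28116051-28116250 on the minus strand holds 18. All 4 were covered over their 200 bases by wild type peaks and over 0 bases by PCGF5-depleted peaks. The Nes window at chr3:87775989-87776188 on the plus strand is intronic with 1 CpG, and the Pou3f2 window at chr4:22414482-22414681 on the minus strand is coding sequence with 17. Both of these were covered in full in both lists. Zeb2 at chr2:44968143-44968342 on the minus strand (intronic, 1 CpG) and Rgma at chr7:80518621-80518820 on the plus strand (intergenic, 1685 bp before the nearest start site, 5 CpG) were covered in full in PCGF5-depleted NPC and not at all in wild type.

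Lost and gained peaks were narrow. Of the 11371 wild type peaks, 4721 (41.5%, 40.6 to 42.4) were lost, and of the 14759 PCGF5-depleted peaks, 5973 (40.5%, 39.7 to 41.3) were gained. The median lost peak was 311 bp wide against 731 bp for kept peaks, and the median gained peak 273 bp against 480 bp for shared peaks. Of wild type peaks at least 4000 bp wide, 223 of 224 were found again, whereas of those under 250 bp 573 of 1975 were (29.0%, 27.1 to 31.1). Lost and gained peaks were therefore mostly narrow and low in their own lists, with a median score percentile of 32.5 for lost and 36.5 for gained peaks, where 100 is the strongest peak of a list. In the top 10% of its list stood 47 lost peaks, 43 of them over 1000 bp from any PCGF5-depleted peak, and 2.98% of the gained peaks, 127 of them over 1000 bp from any wild type peak.

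Broad domains were found again but in pieces. Of the 6650 kept wild type peaks, 1846 (27.8%, 26.7 to 28.8) were touched by 2 or more PCGF5-depleted peaks, whereas 653 of the 8786 shared PCGF5-depleted peaks (7.43%, 6.90 to 8.00) were touched by 2 or more wild type peaks. The median kept wild type peak was covered over 70.6% of its length by the other list, and the median shared PCGF5-depleted peak over 99.7%. There were 1044 kept wild type peaks of 2000 bp or more and 436 shared PCGF5-depleted peaks of that width. The fold enrichment over background that the authors' caller gave was also lower, with a median of 5.13 for kept wild type and 4.29 for shared PCGF5-depleted peaks. Lower enrichment in a library and fewer cells that carry the mark cannot be told apart in bulk chromatin, and neither can be told from a difference in depth.

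Gained peaks lay farther from start sites and in DNA poorer in CpG than lost peaks. Within 2500 bp of a start site were 57.8% of kept, 50.8% (49.3 to 52.2) of lost and 42.0% (40.8 to 43.3) of gained peaks, and of the peaks that were, 37.4% of lost and 21.6% of gained peaks had their centre within 500 bp of it. A 500 bp window about the peak centre was called CpG-rich when its GC content was at least 50% and its observed CpG at least 0.6 of that expected from its base content. By this measure 39.1% (37.6 to 40.7) of kept, 29.4% (27.6 to 31.3) of lost and 15.2% (13.9 to 16.7) of gained peaks near start sites were CpG-rich. Away from start sites the shares were 21.4%, 10.8% and 4.71%. At the start sites of the genes themselves the difference was smaller, with 66.1% of kept, 63.0% of lost and 55.3% (51.8 to 58.7) of gained genes CpG-rich against 48.3% of all genes. Width moved with these shares, since gained peaks were also the narrowest, and its part was not tested.

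**Figure D1:**
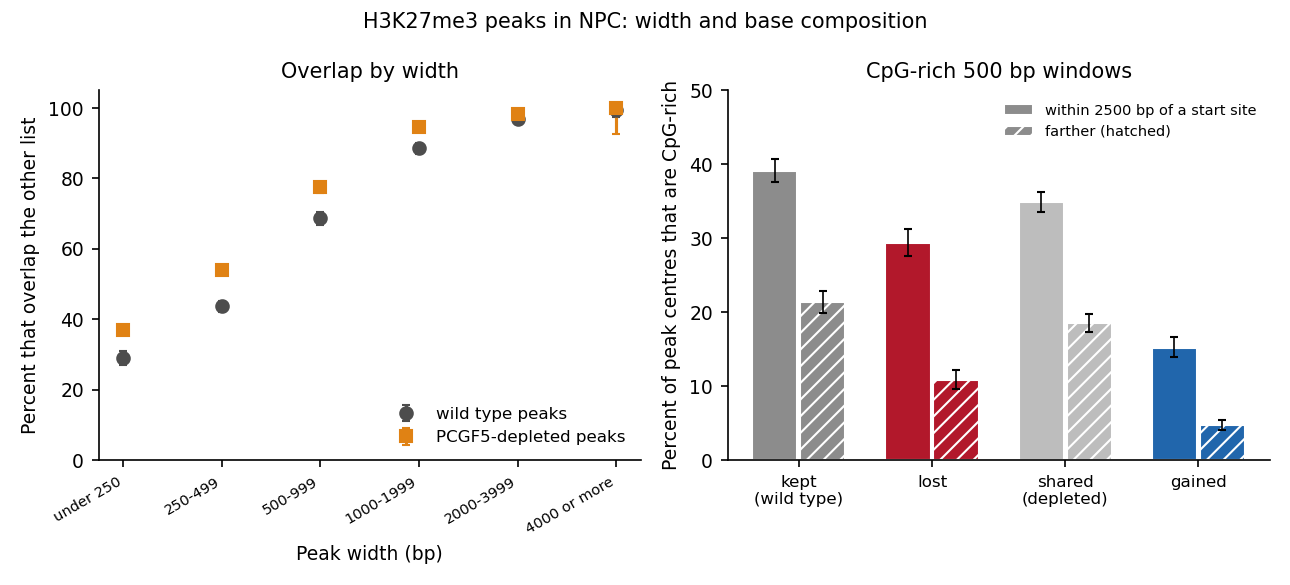
Left, the share of peaks of each width class (bp) that overlapped the other list by at least 1 bp, for wild type and PCGF5-depleted NPC; right, the share of peak centres that were CpG-rich, for peaks near to and far from start sites, with 95% Wilson intervals as bars in both panels. Overlap in wild type went from 29.0% under 250 bp to 99.6% at 4000 bp or more, and gained peaks had the lowest CpG-rich shares, 15.2% near start sites and 4.71% farther away.

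Of 22232 protein-coding genes, 2648 (11.9%) were kept, 832 (3.74%) were lost and 787 (3.54%) were gained. As shares of the genes marked in each list, 832 of 3480 (23.9%) were lost and 787 of 3435 (22.9%) gained, which are similar numbers, but with an equal number of top-scoring peaks from each list 1063 genes were lost and 581 gained. No base of the other list lay within 2500 bp of a start site in 823 of the lost and 756 of the gained genes. The other 31 gained genes, Hoxb4 among them, had wild type peaks that reached the window with their centres outside it, and are not places where the mark was absent in wild type. The mark was thin at most lost and gained genes, with a median of 566 bp covered at lost genes in wild type and 350 bp at gained genes in PCGF5-depleted NPC, against 1628 and 1206 bp at kept genes in the 2 lists. Among kept genes the covered length was longer in PCGF5-depleted NPC at 773 (29.2%) and shorter at 1873 (70.7%), with a median log2 ratio of -0.34. It was at least 2-fold shorter at 595 kept genes and at least 2-fold longer at 202.

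**Figure D2:**
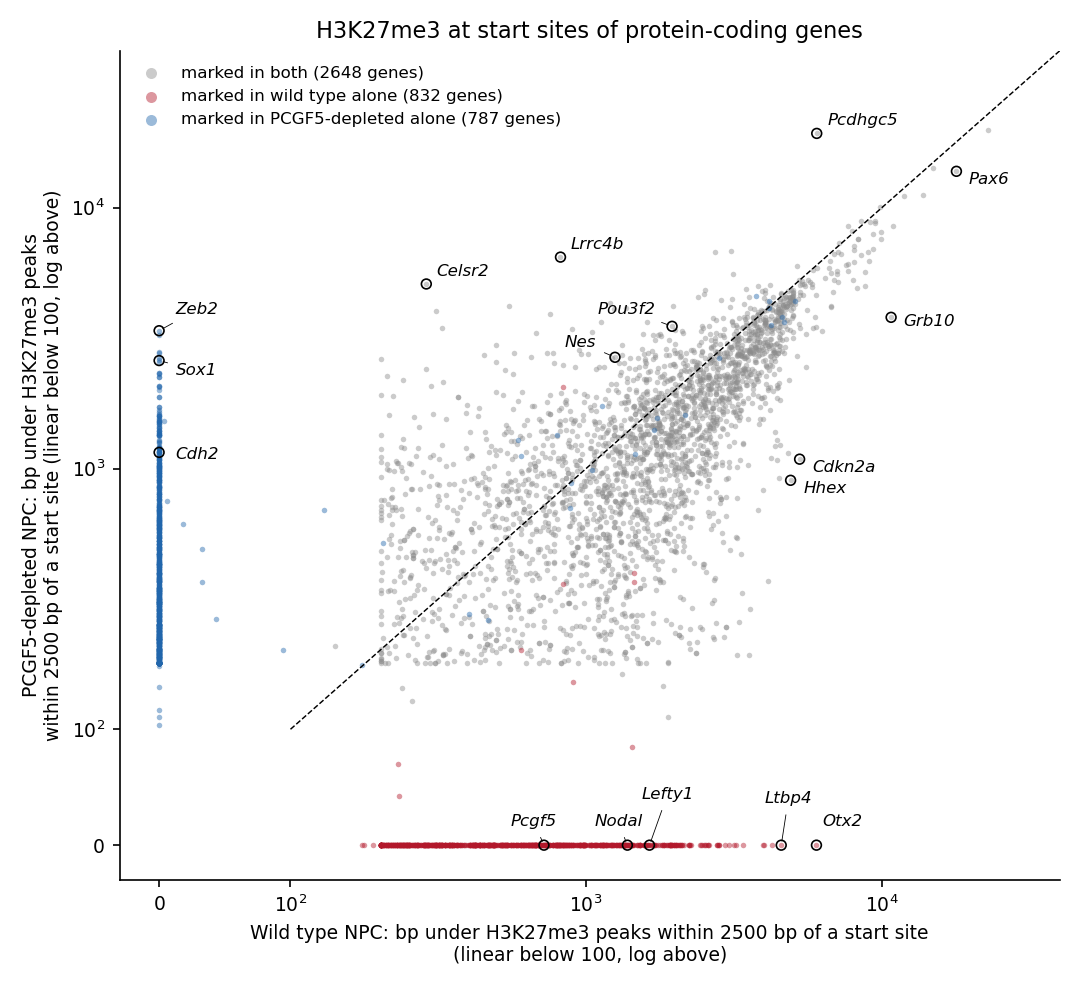
Base pairs under H3K27me3 peaks within 2500 bp of the start sites of each marked gene, wild type NPC on the x axis and PCGF5-depleted NPC on the y axis, both linear below 100 and logarithmic above, 1 point a gene with named genes circled. Lost genes lie along the lower edge up to Otx2 (6013 bp) and gained genes along the left edge up to Zeb2 (3376 bp); kept genes lie mostly below the dashed line of equal length, with Pcdhgc5, Lrrc4b and Celsr2 far above it and Grb10, Cdkn2a and Hhex far below.

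The genes that the study inspected split by their role, which is the split that it had reported. It displayed the mark at Nodal and at the 4 neural genes from its own sequencing, so the values here restate its examples. Neural markers outside this choice moved both ways, as described below. Nodal, a ligand of the TGF-beta family that signals through SMAD2, carried the mark over 1379 bp, under 2 peaks, in wild type NPC and over 0 bp after depletion. Lefty1 and Lefty2, secreted antagonists of Nodal that its own signal induces, carried it over 1638 and 698 bp in wild type and 0 bp after depletion. Their highest fold was 7.13 for Nodal, 4.71 for Lefty1 and 6.55 for Lefty2, at score percentiles of 85.0, 66.0 and 73.5 in the wild type list. The 4 neural genes carried longer marks in PCGF5-depleted NPC. Sox1, among the earliest transcription factors of the neural plate, had 0 bp within 2500 bp of its start site in wild type and 2594 bp under 5 peaks in PCGF5-depleted NPC. Nes, which encodes the intermediate filament nestin of neural precursors, had 1252 and 2670 bp, and Pou3f2 (Brn2), a transcription factor of neural precursors and neurons, had 1953 and 3510 bp. Cdh2, the N-cadherin of the neural epithelium, had 0 and 1153 bp. Pcgf5 itself had 720 bp in wild type and 0 bp in PCGF5-depleted NPC, which is a measure of the mark at its start sites and not of its knockdown.

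Sox1 was marked upstream in both lists and over its start only in PCGF5-depleted NPC. With positions counted in bp from the Sox1 start site, a group of 6 wild type peaks reached from -11858 to -3319, and none followed within 12 kb. In PCGF5-depleted NPC 19 peaks formed a single region of 20909 bp, once peaks within 1000 bp of each other were merged, that ran from -13392 to 7517. Around Pou3f2 the widest merged region grew from 2105 bp in wild type to 13147 bp in PCGF5-depleted NPC. When merged regions replaced peaks for calling genes, the centre of this long region fell outside the promoter window and Pou3f2 was counted as lost, so its class, though not its covered length, rests on how peaks are joined.

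**Figure D3:**
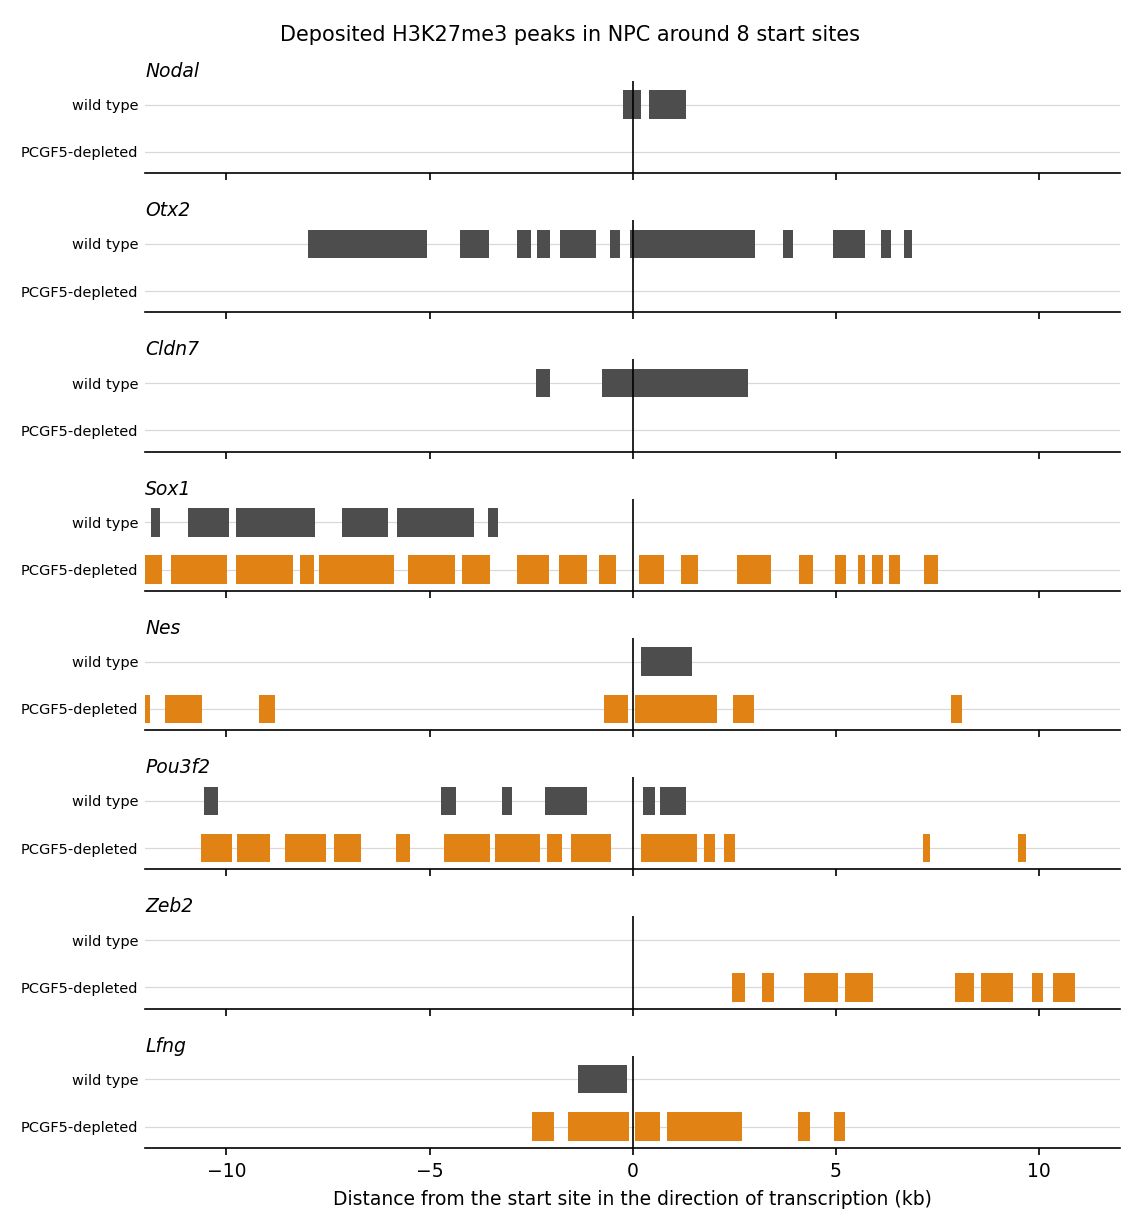
Deposited H3K27me3 peaks (boxes) around the start sites of 8 genes in wild type and PCGF5-depleted NPC, by distance from the start site in kb in the direction of transcription, for genes with several start sites from the most upstream. Nodal, Otx2 and Cldn7 have boxes in wild type alone, Zeb2 in PCGF5-depleted NPC alone, and at Sox1, Nes, Pou3f2 and Lfng the PCGF5-depleted boxes cover the start region more fully.

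The 10 genes with the longest lost mark were of mixed function. Otx2, a homeobox gene of the epiblast and of the forebrain and midbrain, had the longest, with 6013 bp under 8 peaks in wild type and 0 bp in PCGF5-depleted NPC. The widest of the 8, of 3067 bp, was weak, with a fold of 2.80 and a score percentile of 6.75. The highest percentile among them was 74.2. The Otx2 peaks belonged to the widest merged region without any base of the other list, at chr14:49280430-49295306, 14877 bp with 11 peaks. Next came Ltbp4 (4570 and 0 bp), which encodes a latent TGF-beta binding protein, and Esrp1 (4259 and 0 bp), a splicing regulator of epithelial cells. Bcl11a, a zinc finger repressor of blood and neurons, had 4008 and 0 bp, and its region at chr11:23974802-23981877, which also overlaps A830031A19Rik, was the second widest at 7076 bp.

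The remaining 6 of these 10 genes had between 2951 and 3955 bp in wild type and 0 bp in PCGF5-depleted NPC. They were Cldn7 (3955 bp), a tight junction claudin, Cdh3 (3395 bp), the P-cadherin, Camk2b (3211 bp), a calcium-dependent kinase of neurons, Fgf4 (3159 bp), a growth factor of ES, Epas1 (3033 bp), a hypoxia-inducible factor, and Elavl3 (2951 bp), an RNA-binding protein of neurons. Camk2b and Cldn7 carried strong peaks, with a highest fold of 10.72 and 9.57 and score percentiles of 97.0 and 97.3. All 10 had 0 bp in PCGF5-depleted NPC by the rule that chose them. The other widest lost regions lay at Ltbp4 (6787 bp), at Esrp1 (5421 bp) and 709 bp from a start site of Cdkn2b (4937 bp), an inhibitor of cell cycle kinases.

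The 10 genes with the longest gained mark were of mixed function as well. Zeb2, a zinc finger and homeobox repressor that acts in neural crest and cortex and on SMAD signalling, had 0 bp in wild type and 3376 bp under 6 peaks in PCGF5-depleted NPC, with a highest fold of 7.69. Rgma, a repulsive guidance molecule and BMP co-receptor, had 0 and 3247 bp, though its peaks were weak and it was no longer marked in the higher-scoring 50% of each list. Mn1, a transcriptional coregulator, had 0 and 2786 bp, and Igdcc3, a cell surface protein of the immunoglobulin family, 0 and 2775 bp. Id3, an inhibitor of basic helix-loop-helix (bHLH) factors downstream of BMP, had 0 and 2659 bp, and it lay within and beside the first and the third widest gained regions, at chr4:135688576-135695637 (7062 bp) and chr4:135696859-135702570 (5712 bp).

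The others of the 10 genes had between 2303 and 2606 bp in PCGF5-depleted NPC and 0 bp in wild type. They were Dpysl5 (2606 bp), a growth cone protein, Hmga2 (2557 bp), a chromatin protein of embryonic and neural stem cells, Meis2 (2322 bp), a homeobox cofactor, Tnf (2318 bp), an inflammatory cytokine, and Pappa (2303 bp), a protease of the insulin-like growth factor system. Regions at Pcdhgc5 (5832 bp), Mn1 (5115 bp) and Pappa (5081 bp) were also among the 5 widest gained regions. The longest gained stretches were shorter than the longest lost ones, 3376 bp at Zeb2 against 6013 bp at Otx2.

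Among kept genes the 5 with the largest difference in each direction were of mixed function. Pcdhgc5, the name under which the annotation places 10 start sites of the gamma-protocadherin cluster, had 6026 bp in wild type and 19279 bp in PCGF5-depleted NPC, over a window of 44583 bp. Lrrc4b, a synaptic adhesion protein, had 819 and 6467 bp, Celsr2, an atypical cadherin of planar polarity, 288 and 5101 bp, and Ntn1, the axon guidance cue netrin, 3094 and 6796 bp. Nr4a3, an orphan nuclear receptor, had 2730 and 6761 bp. In the other direction Grb10, an imprinted adaptor of insulin signalling, had 10755 and 3800 bp, Cdkn2a, which encodes cell cycle inhibitors, 5274 and 1086 bp, and Hhex, a homeobox gene of endoderm and blood, 4916 and 901 bp. Pax6, a transcription factor of neural precursors and the eye, had 17888 and 13796 bp. Lrrc4b and Celsr2 were gained, and Hhex was lost, when only the higher-scoring 50% of each list was used, whereas Lrrc4b and Hhex were both gained with start sites within 1000 bp of a peak centre.

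By gene class, the counts ran from families that kept the mark at every marked member to families with several lost and gained. Against backgrounds of 23.9% lost and 22.9% gained, none of the 22 marked genes of a list of mesoderm and endoderm regulators was lost or gained, and 20 of the 22 were shorter in PCGF5-depleted NPC, with medians of 4400 and 2776 bp. Hox genes, which set position along the body axis, were kept at 38 of 38, with Hoxb4 as the gained member noted above, and 35 of them were shorter. The proneural bHLH genes, the drivers of neuron formation such as Neurog2, were kept at 16 of 16, with Neurog2 at 3690 and 3604 bp but Neurod1 at 4437 and 1074 bp. All 9 Pax, 12 T-box, 6 Dlx and 6 Irx genes marked in wild type were kept as well. These families carried long marks, with medians of 2333 to 4864 bp in wild type against 566 bp at lost genes. Wide wild type peaks were nearly always found again. The backgrounds are not matched for length and are therefore no fair measure of these zeros. These zero counts rest on the window and on how peaks are joined. With peaks within 1000 bp merged, 2 mesoderm and endoderm genes were lost and 1 gained, 4 Hox genes were lost and 7 gained, and 3 T-box genes were lost and 3 gained. With start sites within 1000 bp of a peak centre, 4 mesoderm and endoderm genes were gained, and 3 Hox genes were lost and 7 gained.

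Pluripotency genes were lost or shortened. Of 20 pluripotency markers 11 were marked in wild type NPC, 6 of them (54.5%) were lost, none was gained, and the 5 that were kept were all shorter. The lost members were Fgf4 (3159 bp in wild type), the chromatin-associated coactivator Utf1 (1822 bp), the Nodal co-receptor Tdgf1 (1049 bp), and the transcription factors Klf5 (990 bp), Tcfcp2l1 (404 bp) and Zfp42 (253 bp), with 0 bp each in PCGF5-depleted NPC. The kept members included Klf2 at 1899 and 181 bp, Prdm14 at 2614 and 768 bp and Klf4 at 2156 and 925 bp, all transcription factors of naive ES, and Tbx3 at 8745 and 5662 bp. All 6 lost members had 0 bp of H3K27me3 at these start sites in wild type and in PCGF5-depleted ES, as read from the ES lists.

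Of 21 matched neural precursor markers, 15 were marked in wild type NPC and 17 in PCGF5-depleted NPC. Only Otx2 was lost (6.67%), and Cdh2, Msi1, an RNA-binding protein of neural stem cells (0 and 1076 bp), and Sox3, a relative of Sox1 (0 and 236 bp), were gained (17.6% of 17). Of the 14 that were kept, 7 were longer and 7 shorter, with medians of 3640 and 3600 bp. Over all kept genes 29.2% were longer and 70.7% shorter. The median log2 ratio was -0.01 for these 14 and -0.34 for all kept genes. The longer ones included Hes5, a Notch target that holds cells as precursors (2389 and 4547 bp), Nes, Pou3f2 and Dach1, a transcriptional cofactor of eye and brain (659 and 1107 bp). The shorter ones included Six3 (9333 and 6970 bp), a transcription factor of the forebrain, beside Pax6. Among these markers the mark thus moved both ways, and it was longer at a larger share than over all kept genes. That share counts Nes and Pou3f2, which the study had already shown with more mark without PCGF5, so it is not independent of them. Small differences also count on either side, as at Lhx2 (9888 and 10047 bp) and Zic1 (6028 and 5880 bp). Sox1 enters no gene count and is outside these numbers. As H3K27me3 peaks do not measure expression, the labelled cell type could not be checked from these lists.

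**Figure D4:**
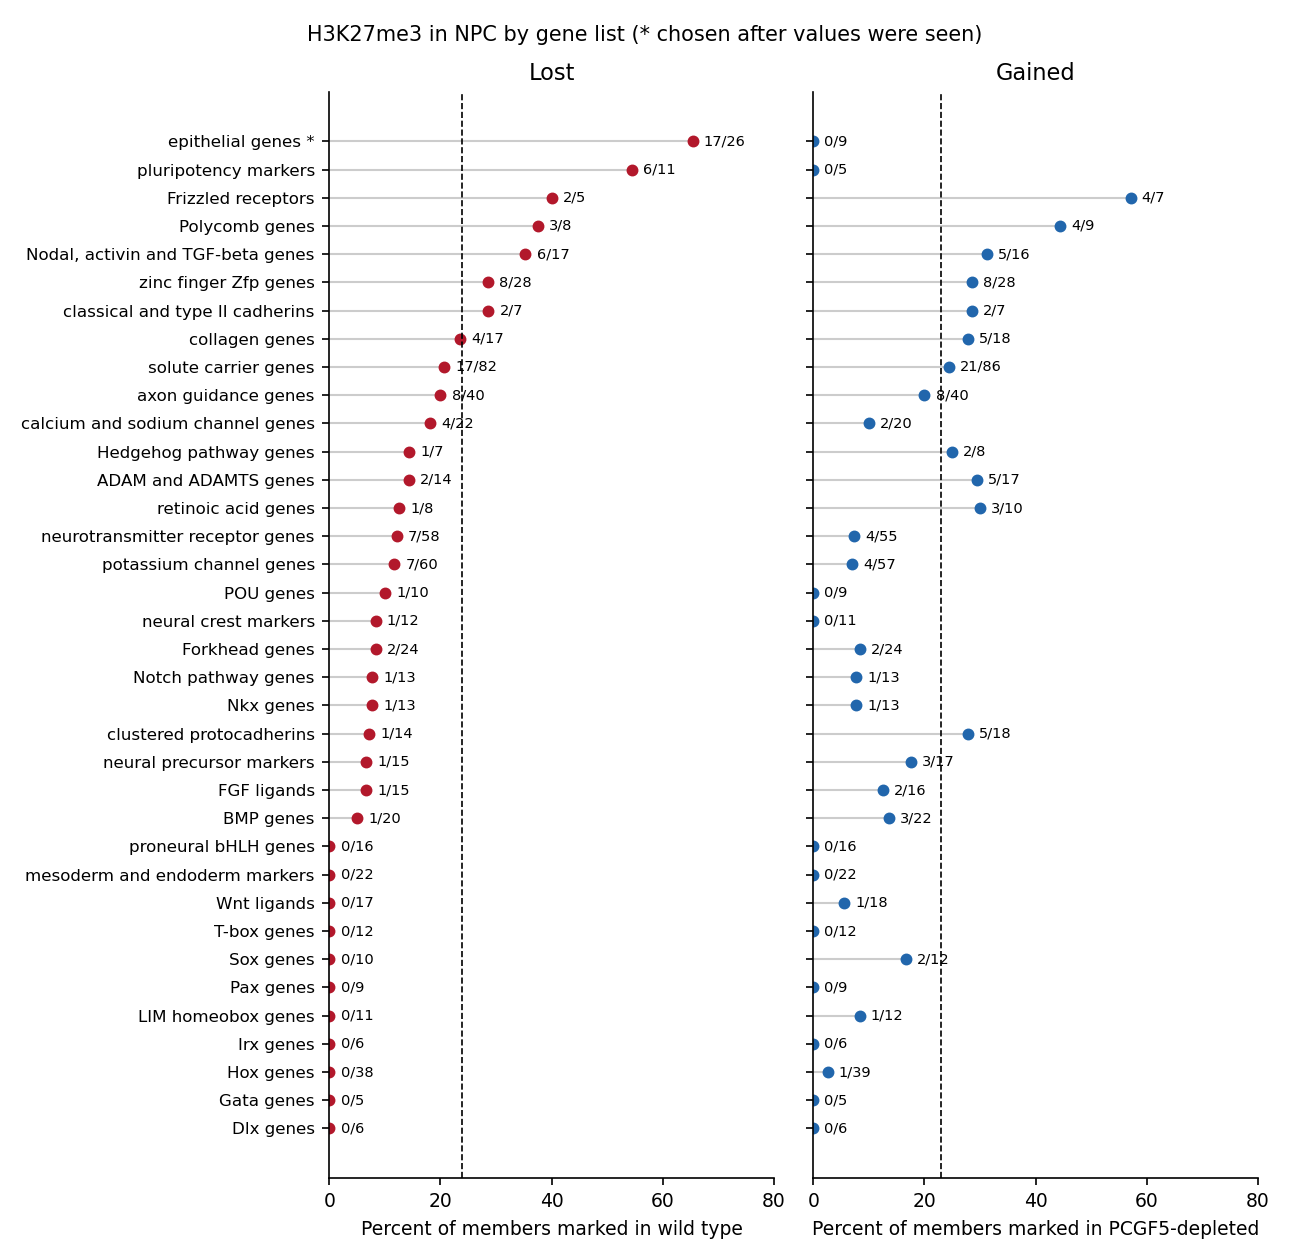
Share of the members marked in wild type NPC that were lost (left) and of those marked in PCGF5-depleted NPC that were gained (right), for lists with at least 5 marked members in both, with counts beside the points; dashed lines give the share over all marked genes, 23.9% lost and 22.9% gained. Epithelial genes (17 of 26) and pluripotency markers (6 of 11) have the highest lost shares, and Hox, Pax, T-box and mesoderm and endoderm genes have none.

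Of the genes of Nodal, activin and TGF-beta signalling, 6 of 17 marked in wild type (35.3%, against 23.9% of all) were lost and 5 of 16 marked in PCGF5-depleted NPC (31.2%, against 22.9%) were gained. With an equal number of top-scoring peaks from each list 6 were lost and 2 gained, against 1063 and 581 over all genes. In the higher-scoring 50% of each list 6 were lost and 3 gained, against 750 and 670 over all genes. The lost members were Nodal, both Lefty genes, the co-receptors Tdgf1 and Cfc1, and Ltbp4. The study had already reported less H3K27me3 at Nodal and both Lefty genes at day 6 without PCGF5. The lost share of this list leans on these known members and is no independent evidence of an excess. The gained members were Fst, the activin-binding follistatin (0 and 1368 bp), the receptors Acvr1b (0 and 328 bp) and Tgfbr2 (0 and 318 bp), Ltbp1 (0 and 266 bp) and Inha, an inhibin subunit. Ligand and co-receptor genes of the Nodal branch were thus on the lost side, while the gained marks at both receptors were narrow single peaks. Of the 11 kept members 5 were longer and 6 shorter. In the related BMP list, Id3, Id1 (0 and 720 bp) and the protease gene Bmp1 (0 and 2252 bp) were gained and Bmpr1b, a receptor (226 and 0 bp), was lost, of 20 genes marked in wild type and 22 in PCGF5-depleted NPC.

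Notch genes kept the mark and mostly lengthened. Of 13 marked in wild type 12 were kept, and 8 of these were longer in PCGF5-depleted NPC against 29.2% of all kept genes, with medians of 1672 and 2362 bp. Lfng, a glycosyltransferase that tunes Notch receptors, had 1202 and 4318 bp, Hes3 2509 and 4684 bp and Hes7 1584 and 2631 bp, both transcriptional repressors downstream of Notch. The ligand genes Dll1 (1810 and 2263 bp) and Dll3 (426 and 882 bp) were longer, and Dll4 (4566 and 4015 bp) and Jag2 (1761 and 378 bp) were shorter. Jag1 was gained (0 and 693 bp) and Hes6 lost (522 and 0 bp).

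The clustered protocadherins, cell surface proteins that give neurons their identity, mostly carried longer marks. All 13 kept members were longer, against 29.2% of all kept genes, with medians of 321 and 1099 bp. Of 18 marked in PCGF5-depleted NPC 5 were gained (27.8%, against 22.9% of all). Of 14 marked in wild type only Pcdhb3 was lost (671 and 0 bp), 7.14% against 23.9% of all. Pcdhb22 had 203 and 1913 bp and Pcdhb17 336 and 1555 bp. These genes lie side by side on chromosome 18 and share windows and peaks, so that they are not independent observations. Among Frizzled receptors of Wnt the counts were small, with Fzd5 (1955 and 0 bp) and Fzd4 (356 and 0 bp) lost and Fzd3 (0 and 2051 bp), Fzd10 (0 and 1048 bp), Fzd2 (0 and 987 bp) and Fzd8 (0 and 727 bp) gained, while 17 of 17 Wnt ligand genes marked in wild type were kept. Axon guidance genes lay slightly under the shares over all marked genes, 23.9% lost and 22.9% gained. Of them 8 of 40 were lost, with Unc5b, a netrin receptor (2813 and 0 bp), the longest, and 8 of 40 gained, with Plxnc1, a semaphorin receptor (0 and 2008 bp), and Efna5, an ephrin (0 and 1887 bp), the longest.

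Of the genes of the Polycomb complexes themselves, 8 were marked in wild type and 9 in PCGF5-depleted NPC. Beside Pcgf5, Phf19, an accessory subunit of complex 2 (1926 and 0 bp), and Kdm2b, which brings a variant complex 1 to CpG islands (213 and 0 bp), were lost. Cbx2 (0 and 630 bp), Yaf2 (0 and 781 bp) and Pcgf1 (0 and 223 bp), subunits of different forms of complex 1, were gained. Of the 5 kept members 4 were longer, among them Auts2 (303 and 1128 bp), a partner of PCGF5.

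Because Esrp1, Cldn7 and Cdh3 stood among the longest lost genes, a list of 33 epithelial genes was drawn up after these values were seen, and its counts describe these lists without supporting anything. In wild type NPC 26 were marked, 17 of them (65.4%) were lost, none was gained, and the 9 that were kept were all shorter, with medians of 2249 and 599 bp. The lost members were adhesion and junction genes (Cdh1 with 1782 and 0 bp, Epcam 1149 and 0 bp, Cldn6 1913 and 0 bp, Cldn4 675 and 0 bp, Tjp3 1135 and 0 bp, Marveld2 724 and 0 bp), the polarity gene Crb3 (2513 and 0 bp), the keratin genes Krt7, Krt8 and Krt18 (435, 319 and 245 bp in wild type), and membrane proteases and their inhibitors (St14 1425 and 0 bp, Spint2 1398 and 0 bp, Spint1 237 and 0 bp), beside the trafficking gene Ap1m2 (512 and 0 bp). Ovol2 and Grhl2, transcription factors of epithelia, were kept at 3969 and 825 bp and at 2249 and 599 bp, and Esrp2 at 3301 and 257 bp. Thus Cdh1 (E-cadherin) was marked in wild type alone and Cdh2 (N-cadherin) in PCGF5-depleted NPC alone.

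To see whether the genes differed before differentiation and in the other Polycomb mark, the remaining lists were read at the same start sites. In wild type ES, H3K27me3 marked 72.9% of the kept genes, 23.8% (21.0 to 26.8) of the lost and 38.4% (35.0 to 41.8) of the gained, against 13.4% of all genes. Most lost genes were thus unmarked in ES (570 of 832 in neither genotype) and marked in wild type NPC alone. In PCGF5-depleted ES the shares were 70.3%, 21.4% and 41.8%.

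H2AK119ub1 in NPC was more frequent in wild type at the lost genes and in PCGF5-depleted NPC at the gained genes. Of the 832 lost genes 69 (8.29%, 6.61 to 10.4) had an H2AK119ub1 peak in wild type and 24 (2.88%, 1.95 to 4.26) in PCGF5-depleted NPC. The 69 include mt-Atp6, mt-Atp8, mt-Co1 and mt-Co2, which lie on mitochondrial DNA, where there are no histones. Of the 787 gained genes 25 (3.18%, 2.16 to 4.65) had it in wild type and 63 (8.01%, 6.31 to 10.1) in PCGF5-depleted NPC, although the second H2AK119ub1 list was the shorter (3845 peaks against 5754). Over all genes the shares were 4.98% and 4.17%, and over kept genes 37.1% and 30.1%. Otx2 had 2904 bp of H2AK119ub1 in wild type and 0 bp in PCGF5-depleted NPC, and Fgf4, Esrp1, Bcl11a, Camk2b and Cldn7 had 479, 470, 349, 261 and 151 bp against 0 bp. Id3, Pappa and Meis2 had 0 bp in wild type and 263, 177 and 142 bp in PCGF5-depleted NPC. Single genes also went against their class or did not follow it. Sox1 had 284 bp of H2AK119ub1 in wild type and 0 bp in PCGF5-depleted NPC, Mn1 had 1314 and 1425 bp, and Nodal, Lefty1 and Lefty2 had 0 bp in both. Most lost and gained genes (743 of 832 and 714 of 787) had no H2AK119ub1 peak in either genotype.

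Binding of PCGF5 itself, read from NPC with Flag-tagged PCGF5, was about as frequent at lost as at kept genes, and the intervals of lost and gained genes overlapped. A Flag-PCGF5 peak was centred in the promoter window of 22.3% (20.8 to 23.9) of kept, 21.9% (19.2 to 24.8) of lost and 18.4% (15.9 to 21.3) of gained genes, against 13.7% of all genes. Of the 10 longest lost genes Ltbp4 (2 peaks), Cdh3 and Camk2b (1 peak each) had such peaks, and of the 10 longest gained genes Meis2 (2 peaks), Mn1 and Id3 (1 peak each). Nodal had 2, Cdh2 and Pou3f2 1 each, and Lefty1, Lefty2, Otx2 and Zeb2 none.

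**Figure D5:**
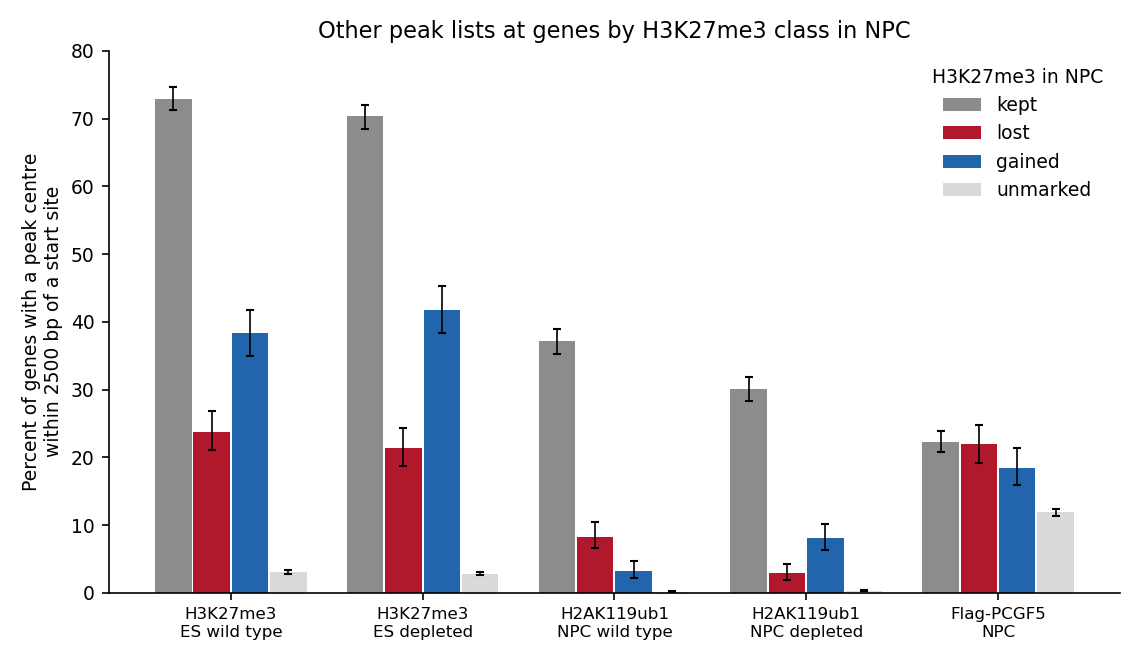
Share of genes with a peak of another list centred in the promoter window (2500 bp to either side of a start), for genes kept, lost, gained or unmarked for H3K27me3 in NPC, with 95% Wilson intervals as error bars. Lost genes had more H2AK119ub1 in wild type (8.29%) than in PCGF5-depleted NPC (2.88%), gained genes less (3.18% against 8.01%), and Flag-PCGF5 shares lay between 18.4% and 22.3% in the 3 marked classes.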

How the data were processed

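Mouse NPC of both genotypes were profiled by chromatin immunoprecipitation of H3K27me3 and sequencing, with 1 library a group and a peak list for each. The authors trimmed the reads, dropped those under 36 bp, aligned them to mm9 with Bowtie2, removed duplicates and called peaks per library with MACS2 2.1.0. As deposited, each peak has a score, a fold enrichment and -log10 p and q values, all given by the authors' caller. The fold is over a local background, and no file gives a read total, so lists were compared by position and length, and strength by its percentile within a list. Every peak had a q at or under 0.05. Drosophila chromatin was spiked in, but the peak lists carry no scaling by it.

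Overlaps, promoter windows (2500 bp to either side of a start), covered base pairs and merged regions (gaps up to 1000 bp) were computed with Python 3.11.15, numpy 2.4.6, scipy 1.17.1 and pysam 0.24.0, checked on simulated peaks and against bedtools 2.31.1. Start sites were those of 22232 protein-coding genes of GENCODE M1. Sox1 is not among its names and was placed by the exact match of its 300-base RefSeq promoter in mm9, and it enters no gene count. A covered length counts bases of any peak in the window, also of peaks centred outside it.

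The members and gene lists were chosen with earlier results of these data known. Named were the genes the study inspected, the 10 lost and 10 gained genes with the longest mark and no base of the other list, the 5 kept genes most longer and most shorter, up to 4 lost and 4 gained members of each list by covered length, and the 5 widest regions each way. Further members, all kept list members and the epithelial list were named after their values were seen. Some genes that these rules name are not reported here. With 1 library a group no test of the conditions was made. Alternatives were subsets of each list by score, an equal number of peaks, merged peaks, autosomes alone, a 50% overlap, a 1000 bp distance and a window of 1000 bp.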

Additional observations from a re-analysis of the deposited data

Results flagged for a closer look

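At 15 of the 38 named genes the difference between genotypes had the opposite sign in NPC and in ES. Values are base pairs under H3K27me3 peaks at the start sites, PCGF5-depleted minus wild type, with 1 library each, and the difference between the cell types was not tested. Genes with less mark in PCGF5-depleted NPC and more in PCGF5-depleted ES were Lefty1 (-1638 bp in NPC and 201 bp in ES), Esrp1 (-4259 and 337 bp), Bcl11a (-4008 and 236 bp), Cdh3 (-3395 and 593 bp) and Pax6 (-4092 and 685 bp). Genes with more mark in PCGF5-depleted NPC and less in PCGF5-depleted ES were Sox1 (2594 bp in NPC and -210 bp in ES), Cdh2 (1153 and -330 bp), Mn1 (2786 and -1133 bp), Meis2 (2322 and -280 bp), Tnf (2318 and -889 bp), Pappa (2303 and -300 bp), Lrrc4b (5648 and -457 bp), Celsr2 (4813 and -3362 bp), Nr4a3 (4031 and -23 bp) and Ntn1 (3702 and -365 bp). At Celsr2 and Mn1 both cell types differed by over 1000 bp. The other ES differences were under 1000 bp in size, with the largest at Tnf (-889 bp) and the smallest at Nr4a3 (-23 bp). The named genes were mostly chosen for large differences in NPC, and the share over all marked genes is not given here.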

How the results depend on the processing

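No paired analysis was possible because each group held 1 library, and leaving out a library leaves no comparison. Depth is unknown, so the weaker peaks carry most of the uncertainty. The share of wild type peaks kept (58.5%) became 50.8% with an equal number of top-scoring peaks from each list, 43.3% when 50% of the peak had to overlap, 73.5% when a peak within 1000 bp sufficed, and 75.9% for the higher-scoring 50% against the whole other list. The share of PCGF5-depleted peaks also in wild type (59.5%) became 64.5%, 52.4%, 72.9% and 72.3% under the same 4 settings, 58.6% for the higher-scoring 50% of each list and 52.6% with peaks within 1000 bp merged. The log2 ratio of genes gained to genes lost (-0.08) became -0.87 with an equal number of peaks (581 gained, 1063 lost) and -0.37 with start sites within 1000 bp of the centre. The cause of these shifts was not tested. Under every setting 297 of the 832 lost, 213 of the 787 gained and 1235 of the 2648 kept genes stayed in their class. Since the named genes were mostly chosen for an empty window in a list or for a large difference, the direction of their covered length could hardly change and shows no stability. The class of 7 of 37 changed under a setting (Lefty2, Pou3f2, Epas1, Rgma, Lrrc4b, Celsr2 and Hhex).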

Other observations

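Counts for genes of neuronal signalling are given beside those over all genes, of which 76.1% of those marked in wild type were kept and 70.7% of the kept were shorter. Of 60 potassium channel genes marked in wild type NPC 53 were kept and 41 of these were shorter in PCGF5-depleted NPC, and of 58 neurotransmitter receptor genes 51 were kept and 41 shorter. Keratin genes, apart from the epithelial list in which they also stand, were marked at 3 of 46 in wild type, and all 3 were lost. Lists that seldom carry the mark served as a reference, with 0 of 79 ribosomal protein genes and 4 of 1087 olfactory receptor genes marked in wild type.

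On the X chromosome 146 of 221 wild type peaks (66.1%) were lost and 68 of 152 PCGF5-depleted peaks (44.7%) were gained, where the shares on the autosomes ran from 35.6% to 49.4% for lost and from 34.0% to 49.2% for gained peaks. The X thus lay above the autosomes for lost peaks and within their range for gained peaks. By genes 29 on the X were lost, 10 gained and 33 kept. Peaks on the Y chromosome numbered 2 in wild type and 31 in PCGF5-depleted NPC. The H2AK119ub1 lists held 0 and 35 Y peaks in NPC and 3 and 9 in ES, with more in PCGF5-depleted cells both times. Only the ES H3K27me3 lists had the opposite order, with 15 and 0. Wild type NPC also had 9 peaks on mitochondrial DNA, which has no histones, against 1 in PCGF5-depleted NPC. Mitochondrial genes such as mt-Co1 are therefore counted among the lost genes. On chromosomes 1 to 19 alone 59.0% of wild type peaks were kept, 791 genes were lost and 777 gained.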
